A study of Mus musculus with 24 samples.

Results

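The inflammatory CC chemokines were followed in this series as 10 genes, Ccl2, Ccl3, Ccl4, Ccl5, Ccl6, Ccl7, Ccl8, Ccl9, Ccl11 and Ccl12. They were taken by their symbols from a count table of 51138 genes, and all 10 had enough counts to be tested. RNA was measured in 24 bone constructs from mice, 4 in each of 6 groups and 1 animal per library, all harvested at week 2. Every construct held 40 mg of a ceramic, biphasic calcium phosphate in granules (BCP), placed under the back skin of male or female Foxp3 DTR/eGFP mice that were 8 to 9 weeks old. Regulatory T cells (Treg), which are defined by the factor Foxp3, carry the diphtheria toxin receptor in these mice.

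The groups were granules without cells (BCP), granules with 800000 bone marrow MSC from wild-type C57BL/6J mice (BCP+MSC, written MSC in the plots), MSC primed for 36 hours with 10 nM resolvin E1, a lipid mediator that resolves inflammation (BCP+MSC+RvE1, written R as in the submitters' key), and MSC cocultured at 1 to 1 with preactivated Treg from Foxp3 DTR/eGFP mice (BCP+MSC+Treg, written T). The last 2 groups were BCP+MSC in mice given 50 µg/kg diphtheria toxin on 2 consecutive days after implantation and again on days 4, 6, 8 and 10. Of these, (dep)BCP+MSC (written DT) received no resolvin, and (dep)BCP+MSC+RvE1inj (written DTR) also received 50 µL of 1 µM resolvin E1 at the construct daily. Each mouse carried 2 constructs of the same kind, and RNA came from the whole construct, so that seeded and host cells were measured together. The counting record also named files called RVE that are not among the 24 columns, so the BCP+MSC+RvE1 values rest on that key. Fewer cells of a type and less RNA per cell cannot be told apart in such samples.

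CC chemokines are small secreted proteins with adjacent cysteines near their start, which guide leukocytes by binding receptors with a shared fold on the cell surface. Ccl2, Ccl7 and Ccl12 attract monocytes through Ccr2, Ccl8 attracts T cells through Ccr8, and Ccl11 (eotaxin) attracts eosinophils through Ccr3. Ccl3 and Ccl4, the macrophage inflammatory proteins, and Ccl5 (RANTES) draw in monocytes and lymphocytes, and Ccl6 and Ccl9 are myeloid chemokines that act on Ccr1. Around an implanted biomaterial macrophages are a known source of many of them, T and NK cells of Ccl5, and fibroblasts of Ccl2, Ccl7 and Ccl11.

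All 10 genes lay on mouse chromosome 11 (GRCm38) in a pair of clusters. Ccl2, Ccl7, Ccl11, Ccl12 and Ccl8 followed each other on the plus strand, from Ccl2 at chr11:82035571-82037453 onward. Ccl5, Ccl9, Ccl6 and Ccl3 lay on the minus strand and Ccl4 on the plus strand of the other cluster, in which Ccl3 spanned chr11:83647844-83649355. The members are copies of each other in evolution, and the coding sequences of Ccl3 and Ccl4 were the most alike of the 45 pairs, at 68.1% identity over 282 aligned columns. No stretch of 50 bases of their annotated transcripts was shared with another gene for 9 members, and 59 of 2957 such stretches were shared for Ccl9. No exon base of a member was covered by another gene of the table.

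The 250 bases before the start are shown for the 5 members that matched an entry in the RefSeq promoter table used here (GRCm38.p6, gene strand, 5′ to 3′). Among them, Ccl8 and Ccl12, and Ccl6 and Ccl9, are pairs that varied together across the libraries, and Ccl3 was lower in the pooled toxin libraries. They lay at chr11:82114935-82115184 for Ccl8 and chr11:82101595-82101844 for Ccl12 on the plus strand, and at chr11:83593088-83593337 for Ccl6, chr11:83578637-83578886 for Ccl9 and chr11:83649379-83649628 for Ccl3 on the minus strand. Capitals mark matches to any of 6 motifs: the TATA box TATAAA on the gene's strand, and on both strands AP-1 (TGANTCA), GAS (TTCNNNGAA), C/EBP (TTNNGNAA), and the ISRE core and NF-kB by their names.
Ccl8: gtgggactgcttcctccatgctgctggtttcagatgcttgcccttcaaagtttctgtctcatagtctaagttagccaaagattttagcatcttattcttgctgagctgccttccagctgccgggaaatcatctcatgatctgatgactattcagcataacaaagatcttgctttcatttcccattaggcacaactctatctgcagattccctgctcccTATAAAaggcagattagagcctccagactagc
Ccl12: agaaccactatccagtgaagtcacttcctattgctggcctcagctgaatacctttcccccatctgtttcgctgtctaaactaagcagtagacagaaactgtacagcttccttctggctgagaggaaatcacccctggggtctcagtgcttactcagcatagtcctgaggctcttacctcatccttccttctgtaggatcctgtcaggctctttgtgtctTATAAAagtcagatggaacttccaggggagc
Ccl6: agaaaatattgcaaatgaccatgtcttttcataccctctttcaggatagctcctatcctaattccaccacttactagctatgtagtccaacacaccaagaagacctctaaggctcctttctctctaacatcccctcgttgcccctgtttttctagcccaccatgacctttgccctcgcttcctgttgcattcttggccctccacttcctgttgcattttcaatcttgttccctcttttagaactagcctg
Ccl9: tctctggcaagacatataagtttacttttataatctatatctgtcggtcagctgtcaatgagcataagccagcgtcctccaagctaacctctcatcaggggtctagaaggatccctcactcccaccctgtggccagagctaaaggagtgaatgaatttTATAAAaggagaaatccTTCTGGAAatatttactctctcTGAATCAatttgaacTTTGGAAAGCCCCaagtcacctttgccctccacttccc
Ccl3: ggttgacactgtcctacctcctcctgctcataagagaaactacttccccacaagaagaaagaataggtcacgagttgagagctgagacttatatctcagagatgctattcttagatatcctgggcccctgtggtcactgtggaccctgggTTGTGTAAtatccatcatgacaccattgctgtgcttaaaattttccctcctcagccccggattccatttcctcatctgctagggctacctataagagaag

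Ccl8 and Ccl12 each held TATAAA, beginning 32 and 31 bases before the start, and no other of the 6 motifs. That box was present in 7.59% of 32851 mouse promoters of the same length. Ccl9 held TATAAA 92 bases before the start, an AP-1 match (6.75% of promoters), C/EBP matches (36.8%) and an NF-kB match on the opposite strand (7.25%), which overlapped a C/EBP match by 5 bases. Ccl3 held a C/EBP match and Ccl6 none of the 6, and GAS (7.02%) and the ISRE core (2.98%) matched in none of the 5. The windows of Ccl8 and Ccl12 were the most alike of the 10 pairs, at 55.6% identity. Ccl2, Ccl4, Ccl5, Ccl7 and Ccl11 are not shown.

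Levels are given as CPM, counts scaled to a common library total by the TMM method. Total counts ran from 8482701 to 144417743 per library, and 3 counts equalled at most 0.354 CPM, under the lowest level of any member. The summed level of 12 monocyte and macrophage markers lay between 5260 and 12400 CPM in every library. Foxp3 itself averaged 0.985 CPM ± 0.542 (SD, n = 4) in (dep)BCP+MSC and 0.933 ± 0.24 in BCP+MSC, so its transcript did not stand lower in constructs of that toxin group at week 2. The sum of 6 regulatory T cell markers was 23.5 to 35.9 CPM in BCP+MSC, 19.7 to 49.7 in (dep)BCP+MSC and 41.1 to 51.2 in (dep)BCP+MSC+RvE1inj. The paper reported the depletion of Treg by flow cytometry of lymph nodes and spleen, which these construct transcripts do not measure. By sex-linked transcripts 7 libraries were female, 3 of them in BCP+MSC and 0 in BCP+MSC+RvE1. Skin markers were present at 1.7 to 484 CPM in sum, highest in a (dep)BCP+MSC library.

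Per kilobase of exon, Ccl8 was the most abundant member in all 24 libraries, with a mean of 3840 CPM per kb and a range of 318 to 7910. Ccl6 (684 CPM per kb) and Ccl9 (350) took the next places in every library. The mean level per kb then fell through Ccl7 (148), Ccl11 (103), Ccl2 (87.0), Ccl12 (60.8), Ccl4 (51.5) and Ccl3 (50.4), and the ranges of these 6 overlapped. Ccl5 was last at 14.5 CPM per kb and held the lowest rank in 20 libraries. By CPM, the 10 genes together reached between 1460 and 8760 in a library, and in (dep)BCP+MSC+RvE1inj they kept to 6800 to 7030.

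**Figure D1:**
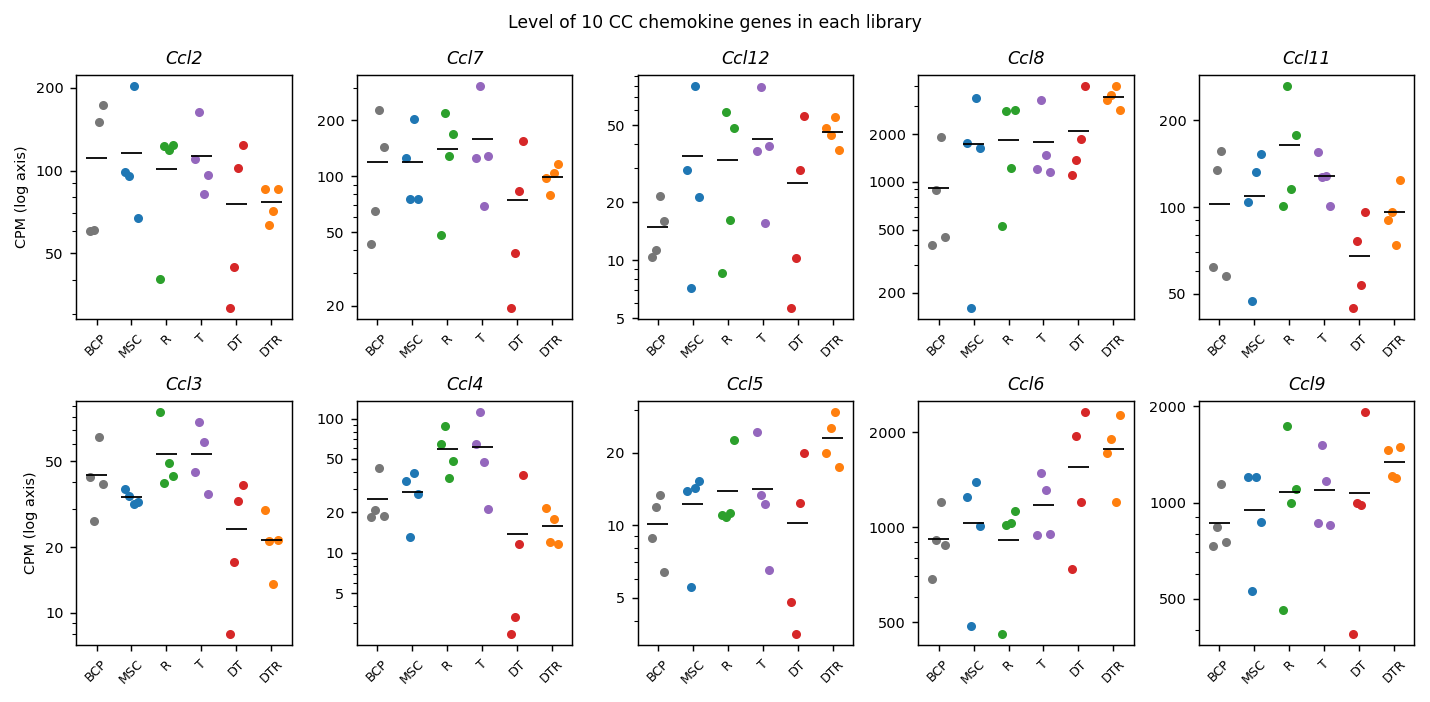
CPM of each of the 10 genes (log axis) in the 24 libraries, by group; points are libraries and lines the group means. Most groups overlap for every gene, Ccl3 and Ccl4 have their lowest libraries in DT, and Ccl8 lies between 2850 and 4040 in DTR.

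Among the ligands of Ccr2, Ccl2 measured 60.4, 60.6, 150 and 174 CPM in BCP and 98.5, 95.3, 204 and 67.2 in BCP+MSC. BCP+MSC+RvE1 gave 40.3, 123, 119 and 124 CPM, while BCP+MSC+Treg gave 110, 163, 82.1 and 96.3. The toxin groups gave 31.7, 44.6, 102 and 124 CPM in (dep)BCP+MSC and 85.5, 63.5, 71.2 and 86.0 in (dep)BCP+MSC+RvE1inj. All 6 groups overlapped, with group means from 75.5 to 116 CPM. Ccl7 followed it, with means of 120 CPM in BCP, 120 in BCP+MSC, 141 in BCP+MSC+RvE1, 158 in BCP+MSC+Treg, 74.3 in (dep)BCP+MSC and 99.4 in (dep)BCP+MSC+RvE1inj, over libraries that ran from 19.6 to 308.

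Ccl12, another ligand of Ccr2, had its lowest group mean without cells, with 10.4, 11.3, 21.5 and 15.9 CPM in BCP. It measured 29.4, 7.17, 80.2 and 21.3 CPM in BCP+MSC, 8.6, 58.3, 16.2 and 48.2 with primed MSC, and 36.6, 78.9, 15.5 and 38.8 with Treg. BCP+MSC and BCP+MSC+RvE1 thus each held a library below every BCP library. The log2 fold change against BCP was 1.22 ± 0.72 (SE) with MSC, 1.15 ± 0.72 with primed MSC and 1.52 ± 0.73 with Treg. None passed edgeR's quasi-likelihood test, with Benjamini-Hochberg adjusted p of 0.888, 0.416 and 0.614. In the toxin groups Ccl12 measured 5.68, 10.2, 29.2 and 55.6 CPM without and 48.4, 44.6, 55.1 and 37.1 with injected resolvin E1.

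Ccl8 spread over more than an order of magnitude among BCP+MSC libraries, at 1760, 162, 3380 and 1630 CPM. BCP libraries gave 401, 886, 1930 and 453 CPM, BCP+MSC+RvE1 libraries 526, 2780, 1230 and 2820, and BCP+MSC+Treg libraries 1200, 3270, 1470 and 1160. It reached 1110, 1380, 1860 and 4000 CPM in (dep)BCP+MSC. The 4 (dep)BCP+MSC+RvE1inj libraries stood close together at 3260, 3530, 4040 and 2850 CPM, and overlapped with those of BCP+MSC, BCP+MSC+Treg and (dep)BCP+MSC. The log2 fold change of (dep)BCP+MSC+RvE1inj over (dep)BCP+MSC was 0.71 ± 0.67 (edgeR's quasi-likelihood test, Benjamini-Hochberg adjusted p = 0.764).

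Ccl11 averaged 103 CPM ± 50.3 (SD, n = 4) in BCP, 109 ± 45.9 in BCP+MSC, 165 ± 74.2 with primed MSC and 128 ± 22 with Treg. It averaged 67.5 ± 23 CPM in (dep)BCP+MSC and 96.2 ± 20.9 in (dep)BCP+MSC+RvE1inj. The lowest group was thus (dep)BCP+MSC, where libraries of 44.8, 76.0, 53.5 and 95.8 CPM overlapped with the 47.1 to 153 of BCP+MSC. The log2 fold change between these groups was -0.69 ± 0.36 (edgeR's quasi-likelihood test, Benjamini-Hochberg adjusted p = 0.285).

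Ccl3 was most even in BCP+MSC, at 37.4, 34.5, 31.9 and 32.6 CPM. BCP gave 42.3, 26.5, 64.6 and 39.5 CPM, BCP+MSC+RvE1 84.6, 39.8, 49.0 and 42.8, and BCP+MSC+Treg 44.8, 76.1, 61.2 and 35.2. Every BCP+MSC+RvE1 library lay above every BCP+MSC library, and for 1.71% of all genes tested these groups did not overlap, in either direction. The log2 fold change was 0.66 ± 0.37, with an exact two-sided permutation p of 0.0286, the smallest that 4 against 4 can give, and an adjusted p of 0.924 (edgeR's quasi-likelihood test with Benjamini-Hochberg adjustment). Toxin-treated mice gave 7.98, 17.1, 32.9 and 38.9 CPM in (dep)BCP+MSC and 29.7, 21.5, 13.6 and 21.7 in (dep)BCP+MSC+RvE1inj.

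Ccl4, which lies next to Ccl3 and is read from the other strand, showed wider steps. It measured 18.5, 20.9, 42.5 and 18.8 CPM in BCP and 34.1, 13.2, 39.0 and 27.3 in BCP+MSC. The level was 64.8, 88.0, 36.3 and 48.2 CPM in BCP+MSC+RvE1, while BCP+MSC+Treg gave 65.0, 112, 47.8 and 21.1. In (dep)BCP+MSC it was 2.49, 3.30, 11.7 and 37.8 CPM, with the first pair far below the other libraries, and in (dep)BCP+MSC+RvE1inj 21.5, 12.1, 17.8 and 11.7. The log2 fold change of (dep)BCP+MSC against BCP+MSC was -1.02 ± 0.64 (edgeR's quasi-likelihood test, Benjamini-Hochberg adjusted p = 0.386), and -2.25 with an adjusted p of 0.0288 in that edgeR test without the library at 37.8 CPM. That library was the highest of its group, so the second value shows only how far the result depends on it. Ccl4 was called in 1 of the 8 fits with a library left out. Against BCP the log2 fold change was 1.29 ± 0.64 for BCP+MSC+Treg and 1.23 ± 0.64 for BCP+MSC+RvE1, with Benjamini-Hochberg adjusted p of 0.614 and 0.345 by edgeR's quasi-likelihood test.

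Ccl5 was the least abundant member. It averaged 10.1 CPM ± 3.1 (SD, n = 4) in BCP, 12.2 ± 4.5 in BCP+MSC, 13.9 ± 5.83 with primed MSC and 14.1 ± 7.51 with Treg. The toxin groups differed more, with 4.79, 3.54, 12.4 and 20.0 CPM in (dep)BCP+MSC and 20.0, 25.2, 29.5 and 17.4 in (dep)BCP+MSC+RvE1inj. These groups overlapped only through the highest (dep)BCP+MSC library. The log2 fold change was 1.17 ± 0.46 with an unadjusted p of 0.0174 and a Benjamini-Hochberg adjusted p of 0.668 in edgeR's quasi-likelihood test, and the exact permutation p was 0.0857. When only the 2 numbered (dep)BCP+MSC libraries, at 4.79 and 3.54 CPM, were kept, a fit added after seeing the data, the log2 fold change was 2.48 with an adjusted p of 0.0121 in the same edgeR test. The 2 libraries left out were the highest of that group for Ccl5, at 12.4 and 20.0 CPM. That fit therefore shows only how far the result depends on them and is no support for a difference.

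Ccl6 and Ccl9, the myeloid ligands of Ccr1, had near equal levels in CPM. Ccl6 averaged 919 CPM ± 213 (SD, n = 4) in BCP, 1030 ± 398 in BCP+MSC, 910 ± 304 in BCP+MSC+RvE1, 1180 ± 273 in BCP+MSC+Treg, 1550 ± 714 in (dep)BCP+MSC and 1770 ± 444 in (dep)BCP+MSC+RvE1inj. The means of Ccl9 ran from 867 to 1340 CPM in the same groups, lowest in BCP and highest in (dep)BCP+MSC+RvE1inj. The ratio of Ccl6 to Ccl9 had a median of 1.1 in BCP+MSC, 1.56 in (dep)BCP+MSC and 1.35 in (dep)BCP+MSC+RvE1inj. The ranges overlapped, at 1.01 to 1.96 in the toxin-treated libraries and 0.583 to 1.16 in the untreated libraries with MSC.

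The 8 comparisons of the design asked what MSC, Treg and resolvin E1 changed in the construct. None of the 10 members passed an adjusted p of 0.05 in any of them (edgeR's quasi-likelihood test, Benjamini-Hochberg adjustment over 30564 genes). Over all genes the share called at that threshold was 3.92% for (dep)BCP+MSC against BCP+MSC and 0% in each of the other 7 comparisons. At an unadjusted p of 0.05 the members gave 0 calls in BCP+MSC against BCP, where 5.06% of all genes passed, 0 in BCP+MSC+Treg against BCP (7.6%) and 0 in BCP+MSC+RvE1 against BCP (15.6%). They also gave 0 calls in BCP+MSC+Treg against BCP+MSC (2.72%), in BCP+MSC+RvE1 against BCP+MSC (3.26%) and in BCP+MSC+Treg against BCP+MSC+RvE1 (2.37%). With toxin they gave 0 in (dep)BCP+MSC against BCP+MSC (20.3%), and 1, Ccl5, in (dep)BCP+MSC+RvE1inj against (dep)BCP+MSC (7.42%).

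The direction of the fold changes leaned upward in most comparisons. All 10 members had a log2 fold change above 0 in BCP+MSC+Treg against BCP, with a median of 0.38 beside 0.03 over all genes, and 9 of 10 did in BCP+MSC against BCP, where the median was 0.15 beside 0.06. In (dep)BCP+MSC against BCP+MSC 7 of 10 were below 0, with a median of -0.47 beside -0.04 over all genes. Of all 30564 genes, 15818 were above 0 in BCP+MSC+Treg against BCP and 16739 in BCP+MSC against BCP. In (dep)BCP+MSC against BCP+MSC 15923 were below 0. Comparisons that share the BCP or BCP+MSC libraries are not independent of each other. Many members also varied together across libraries, so their directions are not independent either. The 95% intervals were wide, from -1.29 to 1.47 on the log2 scale for Ccl8 in BCP+MSC+RvE1 against BCP+MSC for example, so these data limit a difference in either direction only loosely.

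**Figure D2:**
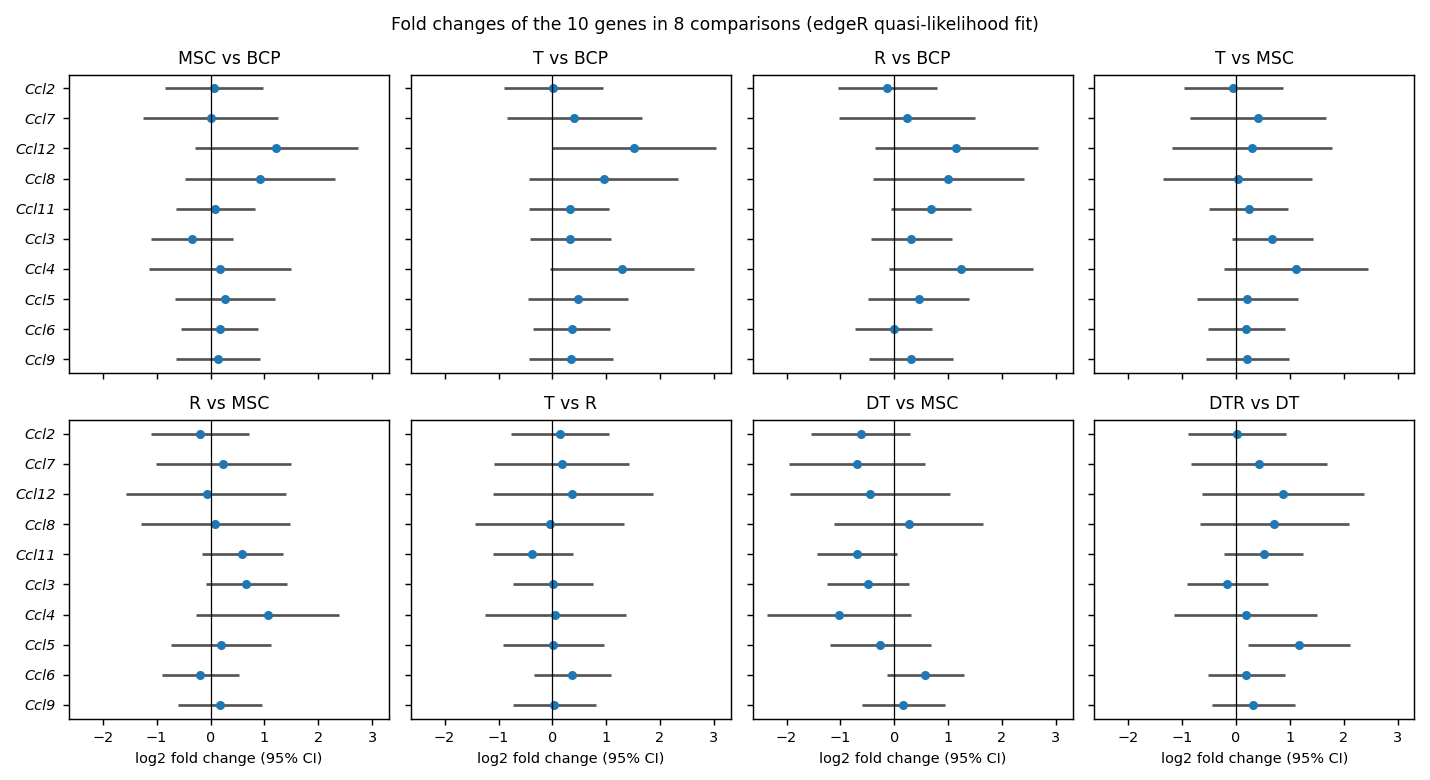
Log2 fold change (points) with 95% confidence interval (lines) of the 10 genes in the 8 comparisons. The interval of Ccl5 in DTR vs DT, from 0.22 to 2.11, lies above 0, and that of Ccl12 in T vs BCP, from 0 to 3.04, starts at it.

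Resolvin E1 was given in different ways, by priming the MSC or by injection in toxin-treated mice, and the difference between both effects was tested as an interaction. No member passed it at an adjusted p of 0.05 (0% of all genes did) or at an unadjusted one (4.45% of all genes). The largest differences in either direction were those of Ccl5, at 0.98 ± 0.64 on the log2 scale, and Ccl4, at -0.88 ± 0.9.

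After these values were seen, (dep)BCP+MSC+RvE1inj was also set against BCP+MSC. No member passed the adjusted threshold, which 0.72% of all genes did, and Ccl6 passed the unadjusted one, as 13.7% of all genes did, with a log2 fold change of 0.78 ± 0.35. The groups did not overlap for 2 members, Ccl3 (-0.66 ± 0.37) and Ccl5 (0.91 ± 0.45), beside 7.21% of all genes. Both had an exact permutation p of 0.0286.

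The 8 toxin-treated libraries were then pooled and set against the 12 untreated libraries with MSC (BCP+MSC, BCP+MSC+RvE1 and BCP+MSC+Treg), again after the values were seen. In this comparison 4 of 10 members passed an adjusted p of 0.05 in edgeR's quasi-likelihood test with Benjamini-Hochberg adjustment, as did 13.7% of all genes, and the same 4 passed at an unadjusted p, as did 28.3%. Ccl3, Ccl4 and Ccl11 were lower and Ccl6 was higher with toxin.

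Ccl3 had a lowest, median and highest level of 31.9, 41.3 and 84.6 CPM in untreated and 7.98, 21.6 and 38.9 in toxin-treated libraries. Its log2 fold change was -1.02 ± 0.24 (edgeR's quasi-likelihood test, Benjamini-Hochberg adjusted p = 0.00706), and 6 of 8 toxin libraries lay below every untreated library. Ccl4 had 13.2, 43.4 and 112 CPM in untreated and 2.49, 11.9 and 37.8 in toxin-treated libraries. Its log2 fold change was -1.66 ± 0.43 (adjusted p = 0.015 in the same edgeR test), with 5 of 8 toxin libraries below all untreated ones.

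Ccl11 went from a median of 127 CPM (range 47.1 to 264) to 83.3 (44.8 to 124), with a log2 fold change of -0.71 ± 0.24 and an adjusted p of 0.0467 in the same edgeR test. Ccl6 went from 1020 CPM (460 to 1490) to 1810 (738 to 2320), with 0.68 ± 0.22 and an adjusted p of 0.0411. Both lay near the threshold and their groups overlapped. With each of the 20 libraries left out in turn, Ccl6 was called in 10 fits (adjusted p from 0.0233 to 0.122 in edgeR's test) and Ccl11 in 6 (0.0189 to 0.0959), while Ccl3 and Ccl4 were called in all 20. Of the other members, Ccl2 (-0.53 ± 0.29), Ccl7 (-0.69 ± 0.4), Ccl8 (0.58 ± 0.42), Ccl5 (0.2 ± 0.29), Ccl9 (0.2 ± 0.24) and Ccl12 (-0.09 ± 0.46) did not pass. The median over the 10 members was -0.31, beside -0.03 over all genes.

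**Figure D3:**
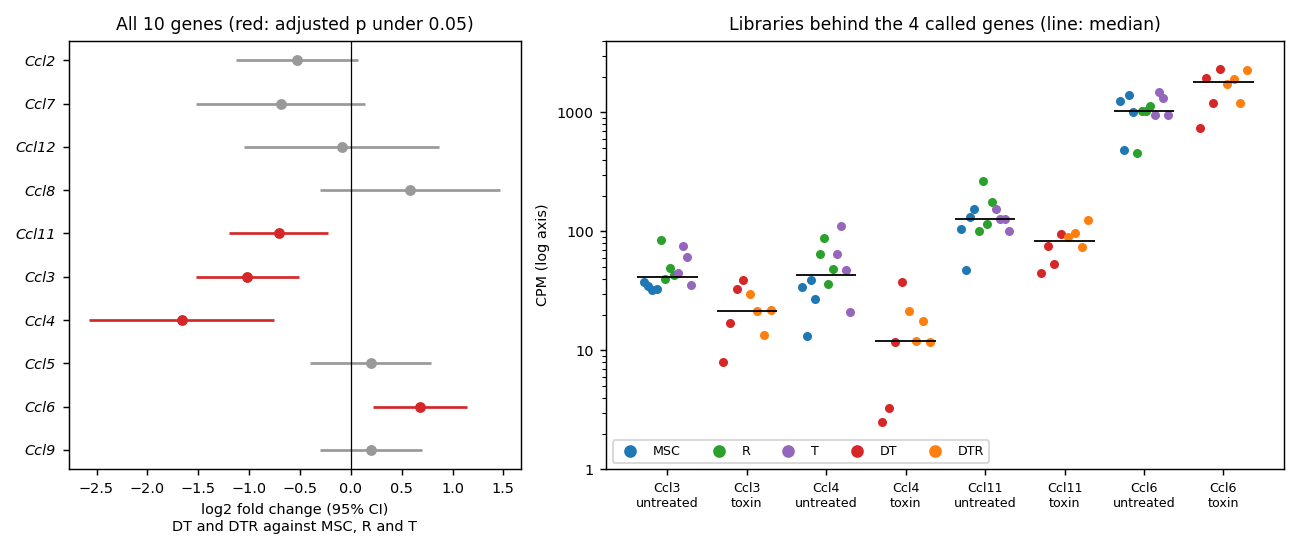
Left, log2 fold change with 95% confidence interval of the 10 genes for the DT and DTR libraries against the MSC, R and T libraries, with adjusted p under 0.05 in red. Right, CPM (log axis) of the 4 genes in red in each library with the median as a line, where all 8 toxin libraries of Ccl3, Ccl4 and Ccl11 lie below the untreated median.

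Toxin treatment and the experiment in which the toxin groups were made cannot be told apart, since no untreated group was named as part of the toxin arm. Primed and cocultured constructs stood only in the untreated pool, so the pooled comparison does not separate them from toxin. Other cell types moved with the toxin as well. The counts below are at an adjusted p of 0.05 in edgeR's test, which 13.7% of all genes passed. Of 10 fibroblast markers all 10 had a log2 fold change below 0 and 8 were called lower. Their summed level was 4070 to 15800 CPM in toxin and 10600 to 38200 in untreated libraries. Of 13 T and NK cell markers 6 were higher and 1 lower, with sums of 34.9 to 175 and 32.6 to 125 CPM. Of 10 neutrophil markers 4 were higher and 4 lower. Of 12 monocyte and macrophage markers 2 were higher, Mertk (1.39 ± 0.24) and Cd163 (2.01 ± 0.36), and 2 lower, Cd14 (-0.73 ± 0.22) and Lyz2 (-0.95 ± 0.25), with sums of 5260 to 10500 CPM in toxin and 7410 to 12200 in untreated libraries. Of 8 mast cell markers 3 were higher and 1 lower, and of 8 osteoclast and giant cell markers 3 were lower, and no marker of these lists was at 0 in all libraries of a group. A fit with the fibroblast score as a covariate was added after seeing the data. In its edgeR test the log2 fold change was -0.61 for Ccl3 (adjusted p = 0.216) and -1.97 for Ccl4 (adjusted p = 0.0259). It was -1.01 for Ccl11 (adjusted p = 0.0413) and 0.61 for Ccl6 (adjusted p = 0.206). The score averaged 8.04 and 8.28 in the toxin groups and 9.05 to 9.31 in the untreated groups with MSC, so this fit cannot separate it from toxin. The part of the other cell types in these results was not tested.

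Ratios between members within a library do not depend on the scaling between libraries. Of the 45 ratios, 5 did not overlap between toxin-treated and untreated libraries, the BCP libraries included. How often ratios of other gene pairs did so was not counted, so the 5 cannot be read as particular to these members. In the pooled comparison 28.3% of all genes passed an unadjusted p of 0.05 in edgeR's quasi-likelihood test. That is a share of single genes and not of ratios. The ratio of Ccl8 to Ccl4 was 106 to 447 with toxin, 8.12 to 86.7 in the untreated libraries with MSC and 21.7 to 45.4 in BCP. Those of Ccl6 to Ccl4 (61.4 to 589 against 7.1 to 45.2) and Ccl9 to Ccl4 (50.7 to 301 against 7.13 to 40.3) also rested on Ccl4. The others were Ccl6 to Ccl11, at 16.3 to 25.6 against 3.85 to 12.1, and Ccl8 to Ccl7, at 22.2 to 56.7 against 2.16 to 21.6. These pairs were picked for not overlapping, so their values are a description without a test.

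The receptors, the cytokines that regulate CC chemokines and NF-kB target genes were read in the same pooled comparison. Among the receptors, the level of Ccr3, which binds eotaxin, was lower with toxin, by a log2 fold change of -0.94 ± 0.28 (edgeR's quasi-likelihood test, Benjamini-Hochberg adjusted p = 0.0244). Ccr2 had -0.81 ± 0.33 and an adjusted p of 0.102 in this edgeR test. Among 8 cytokines that regulate these chemokines, Il1b (-2.35 ± 0.6) and Tnf (-1.33 ± 0.24) were lower and Ifng (1.81 ± 0.58) was higher. The genes named passed an adjusted p of 0.05 in this edgeR test. Ifng rested on few reads, with means of 0.109 CPM in BCP+MSC, 0.454 in (dep)BCP+MSC and 1.09 in (dep)BCP+MSC+RvE1inj. Its counts ran from 0 to 59 in (dep)BCP+MSC and from 2 to 88 in (dep)BCP+MSC+RvE1inj libraries. Tnf averaged 10.5 CPM in (dep)BCP+MSC, 9.78 in (dep)BCP+MSC+RvE1inj and 20.3 in BCP+MSC.

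NF-kB is a transcription factor that drives many CC chemokines and its own inhibitors. Of 8 genes of this feedback, Nfkbie (-0.89 ± 0.22) and Nfkb2 (-0.59 ± 0.15) were lower and Birc3 (0.39 ± 0.12) was higher at an adjusted p of 0.05 by edgeR's test. Of 10 tested other CC chemokines, Ccl22 was lower (-0.89 ± 0.3) and Ccl1, a ligand of Ccr8 like Ccl8, was higher (2.06 ± 0.47), from a mean of 0.961 CPM in BCP+MSC to 2.1 and 4.86 in the toxin groups. In the 8 comparisons of the design no gene named from these lists passed the adjusted threshold.

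The members varied together across the 24 libraries in a few sets. Pearson's r of log2 CPM was 0.91 for Ccl2 and Ccl7 (Spearman's rho 0.93, 0.88 without the 2 libraries farthest from the median of Ccl2) and 0.93 after each group was centred on its mean. The permutation p was 1.0e-05, the smallest that 100000 permutations can give, and 6.4e-05 after Benjamini-Hochberg adjustment over the 45 pairs. Ccl3 and Ccl4 had r = 0.83 and rho = 0.8 (adjusted permutation p = 1.1e-04), with r = 0.8 without the 2 farthest libraries and 0.69 within groups. Ccl6 and Ccl9 had r = 0.82 and rho = 0.84, with 0.73 and 0.89, and Ccl8 and Ccl12 r = 0.81 and rho = 0.84, with 0.79 and 0.83 (adjusted permutation p = 6.4e-05 for both).

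Ccl3 and Ccl8 did not follow each other, at r = -0.16 and rho = -0.2 (permutation p = 0.465) and 0.15 within groups. Ccl8 and Ccl11 had r = 0.48 over all libraries and 0.79 within groups. Ccl8 also varied with Ccl6 (r = 0.8, rho = 0.81) and Ccl9 (r = 0.79, rho = 0.87) of the other cluster (adjusted permutation p = 6.4e-05 for both).

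**Figure D4:**
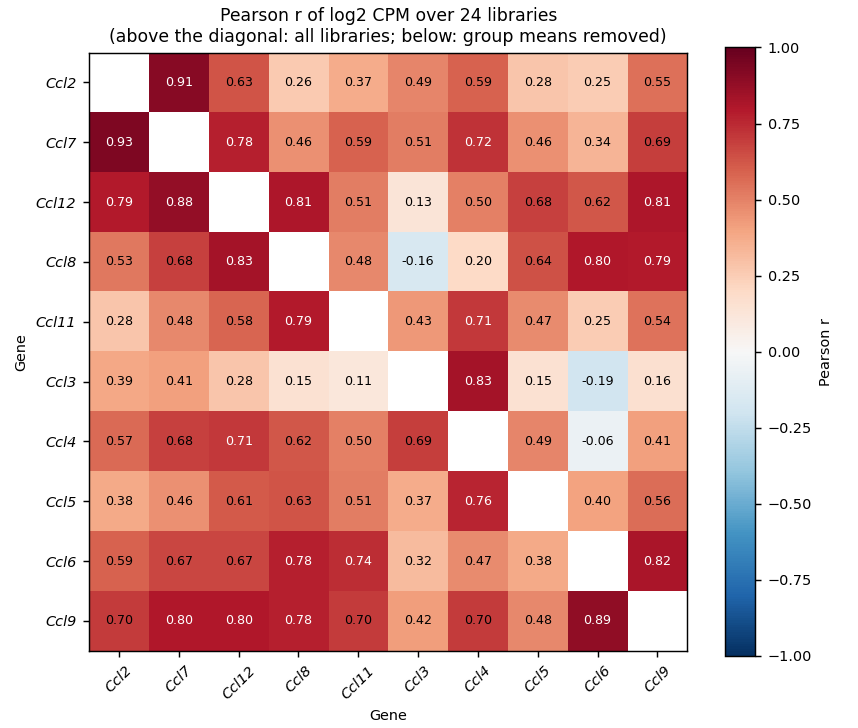
Pearson's r of log2 CPM over 24 libraries for each pair of the 10 genes, above the diagonal over all libraries and below it after group means were removed. The highest value above the diagonal is that of Ccl2 and Ccl7 (0.91), and the values of Ccl3 with Ccl8 (-0.16), Ccl6 (-0.19) and of Ccl4 with Ccl6 (-0.06) are below 0.

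For each member the 3 genes with the most similar pattern were read among 14774 symbol-named genes with a mean of at least 1 CPM, as a description. Ccl5 was most like Nkg7 (r = 0.95), Ctsw (0.9) and Trbc1 (0.89), which are expressed by cytotoxic and T lymphocytes. Ccl3 was most like Trem3 (r = 0.92), Cxcl2 (0.92), a chemokine for neutrophils, and Hcar2 (0.9). For Ccl2 the nearest were Ccl7, Stambpl1 (0.86) and Hbegf (0.85), a growth factor of the EGF family, and for Ccl7 they were Ccl2, Arl4c (0.9) and Ch25h (0.9). Ccl4 was nearest to Vasp (0.95), Srsf7 (0.94) and Lst1 (0.94), and Ccl12 to Ap1b1 (0.92), Gzma (0.91), a granule protease of lymphocytes, and A4galt (0.9). Ccl6 was nearest to Ap2a2 (0.86), Srgn (0.83) and Tfec (0.83), Ccl8 to Ang (0.89), Car4 (0.88) and Tmem37 (0.87), Ccl9 to Vrk1 (0.87), Tarm1 (0.87) and Dera (0.86), and Ccl11 to Manf (0.86), Aif1l (0.86) and Samd1 (0.85).

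Each member was also set against the mean log2 CPM of 5 marker lists, 50 relations in all, of which 11 passed a Benjamini-Hochberg adjusted permutation p of 0.05. Ccl5 followed the T and NK cell markers with r = 0.94 and rho = 0.95 (adjusted permutation p = 5.0e-04), 0.92 without the 2 farthest libraries and 0.94 within groups. Ccl8 and Ccl12 had r = 0.73 with that list (rho 0.77 and 0.67, adjusted permutation p = 0.0015 for both), with 0.81 and 0.65 without the 2 farthest libraries and 0.66 and 0.68 within groups. The monocyte and macrophage list gave r = 0.65 and rho = 0.67 with Ccl6 (adjusted permutation p = 0.0075), with 0.63 without the 2 farthest libraries and 0.67 within groups.

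Ccl3 had r = 0.63 and rho = 0.47 with the fibroblast markers (adjusted permutation p = 0.00967), 0.48 without the 2 farthest libraries and 0.37 within groups. Other lists gave Ccl3 a higher r within groups, 0.68 for neutrophil, 0.51 for monocyte and macrophage and 0.46 for T and NK cell markers. Over all libraries these were 0.37, 0.18 and 0.04. Ccl4 within groups followed both the neutrophil list (r = 0.82) and the T and NK cell list (r = 0.76). Over all libraries Ccl4 had r = 0.48 and rho = 0.52 with the neutrophil list (adjusted permutation p = 0.0613 for r) and 0.4 without the 2 farthest. With the T and NK cell list r was 0.32 over all libraries. Ccl8 had r = 0.6 with the skeletal muscle markers (adjusted permutation p = 0.0236), but rho was 0.22 and r fell to 0.13 without the 2 farthest libraries, so that relation rests on those libraries. None of the 10 members followed log10 total counts at an adjusted permutation p of 0.05, the highest r over all libraries being 0.52 for Ccl3 (rho 0.38, adjusted permutation p = 0.0844). Within groups r was 0.6 for Ccl3, 0.52 for Ccl5 and 0.43 for Ccl4, which was not tested. The library with the fewest counts, (dep)BCP+MSC replicate 1, also held the lowest Ccl3 and Ccl4 levels.

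**Figure D5:**
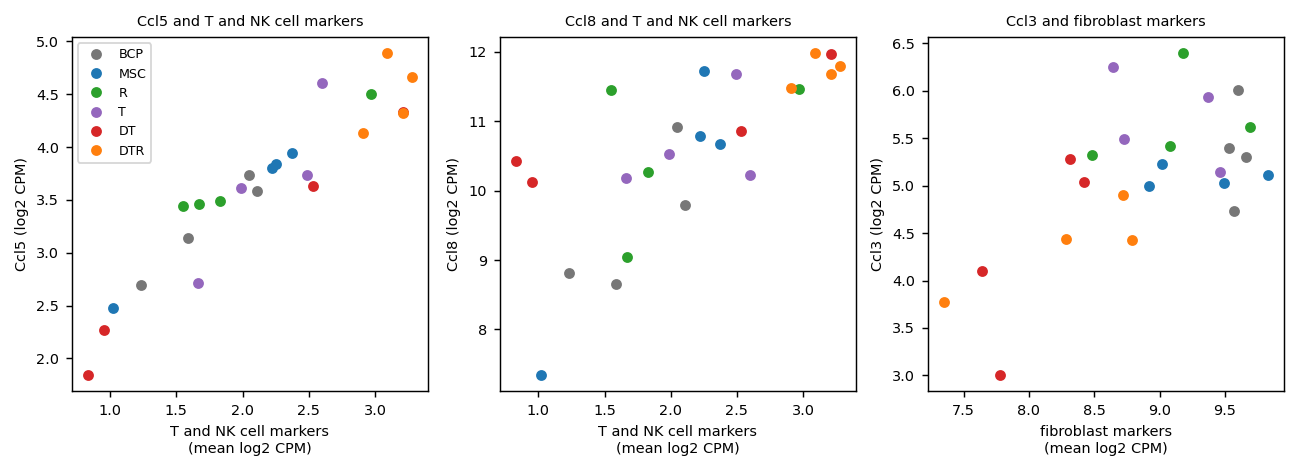
Log2 CPM of Ccl5 and Ccl8 against the mean log2 CPM of 13 T and NK cell markers, and of Ccl3 against that of 10 fibroblast markers; points are the 24 libraries, coloured by group. Ccl5 lies along a line (r = 0.94), Ccl8 more loosely (r = 0.73), and Ccl3 is lowest in toxin libraries with few fibroblast transcripts (r = 0.63, but 0.37 within groups).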

How the data were processed

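Per the study's methods and the submitters' processing notes, the authors sequenced stranded mRNA libraries as paired ends, aligned them to the mouse genome with HISAT2 2.0.5 and counted read pairs on exons of GENCODE M13, a GRCm38 annotation, with featureCounts 1.5.2. The deposited values are raw counts per gene. The recorded command left strand, multimapping and overlap at their defaults, so reads of similar genes may have been left out. That command named 28 alignment files, among them files named RVE beside those named R, and the table holds 24 columns, all used. The R columns were taken as BCP+MSC+RvE1 because the submitters' key says so, and what the RVE files hold is not known here, which bears on every BCP+MSC+RvE1 value. The (dep)BCP+MSC columns are numbered 1, 2, 4 and 5 and the labels 1 to 4, so 2 of these libraries carry no replicate number here. Symbols, transcripts and coding sequences came from GENCODE M21, also on GRCm38, while gene positions and exon lengths were those of GENCODE M13.

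The filter asked for 10 counts summed over the samples, which 30564 of 39183 genes with any count met, and 1 quasi-likelihood model with TMM scaling was fitted to all 6 groups with edgeR 4.0.16 in R 4.3.3. Fold changes are log2 estimates with their standard error, and p-values were adjusted by Benjamini-Hochberg over all genes tested. Log2 CPM used a prior count of 2. For groups of 4, a two-sided exact permutation test used all 70 arrangements. Correlations used 100000 permutations. Scripts were tested on simulated data.

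The 10 members, the gene lists and the comparisons were chosen with earlier results of these data known. All members are named in each comparison, up to 4 genes with the smallest p from each list, and the 3 genes most like each member. Alternatives were RLE scaling, other count filters, a replicate block, only the groups compared, DESeq2, covariates for sex, muscle and library size, and each library left out. Skin and fibroblast covariates, the comparisons of (dep)BCP+MSC+RvE1inj with BCP+MSC and of pooled toxin groups, and a fit on only the 2 numbered (dep)BCP+MSC libraries were added after seeing the data. Libraries came from separate animals. The floor of 3 counts covers counting error only. Sequences were read from RefSeq promoters of GRCm38.p6. Some items of the gene lists are not reported here.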

Additional observations from a re-analysis of the deposited data

Results flagged for a closer look

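In 5 of 60 sets of 4 libraries (10 members in 6 groups), a library stood apart from the other 3 by more than Dixon's 95% critical value, where chance alone gives about 1 in 20. In BCP+MSC+RvE1, replicate 1 was lowest for Ccl2, at 40.3 CPM beside 119 to 124 in the others, and for Ccl6, at 460 CPM beside 1020 to 1130. The same library had the highest Ccl3 level of all 24, 84.6 CPM. In that group replicate 4 was highest for Ccl5, at 22.6 CPM beside 10.8 to 11.2. In BCP+MSC, replicate 2 was lowest for Ccl5, at 5.56 CPM beside 13.9 to 15.3, and it also held the lowest Ccl8 level of all 24, 162 CPM. In BCP, replicate 3 was highest for Ccl4, at 42.5 CPM beside 18.5 to 20.9. Why these libraries differed was not tested.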

How the results depend on the processing

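Of 2400 refitted fold changes of single members, 2320 kept their call or lack of one and stayed within the spread between replicates, 33 lost a call, 12 gained one, 35 moved by more than 1 pooled SD without a change of call, and 0 of the called ones changed sign. Most of the 2400 had no call to lose, since only Ccl3, Ccl4, Ccl6 and Ccl11 in the pooled toxin comparison were called at first. Of 12 alternatives without a library left out, Ccl4 was called in 12, Ccl3 in 11, and Ccl6 and Ccl11 in 8 each. Of 20 fits with a library left out, Ccl6 was called in 10 and Ccl11 in 6. The members called at an adjusted p of 0.05 in (dep)BCP+MSC against BCP+MSC numbered 0, and 0 to 1 when a library was left out. The 1 was Ccl4, at -2.25 (edgeR's quasi-likelihood test, Benjamini-Hochberg adjusted p = 0.0288) without the unnumbered library with the highest Ccl4. With the replicate block, which also drops the 2 unnumbered libraries, 2 were called there (Ccl3 and Ccl4) and 2 in (dep)BCP+MSC+RvE1inj against (dep)BCP+MSC (Ccl4, 2.57, and Ccl5, 2.47). A fit without a block on the same libraries gave 3 and 2, so leaving out the 2 unnumbered libraries was enough for calls. Those 2 libraries were the highest of their group for Ccl3, Ccl4 and Ccl5, so these calls are no support for a difference. Ccl4 was -3.42 with the block and -3.26 without it in the first comparison. Same-numbered libraries did not pair, since only 17 of 50 pairs correlated over 0.1.

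In the pooled toxin comparison 4 members were called, 2 with the replicate block, 2 with the fibroblast covariate and 2 to 4 with each library left out (2 without BCP+MSC replicate 4, BCP+MSC+Treg replicate 1 or 3, (dep)BCP+MSC replicate 2, or (dep)BCP+MSC+RvE1inj replicate 1 or 2). Ccl4 was called in all 20 of these last fits and so was Ccl3, Ccl6 in 10 and Ccl11 in 6. With the skin covariate Ccl11 had an adjusted p of 0.262 in edgeR's test. Of the relations with marker lists 11 were called, and 21 after each group was centred. Depth differed 17-fold between libraries, and the lowest count of a member in a library was 25, beside the floor of 3.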
